A study of Mus musculus with 3 samples.

Results

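The genes described here encode the subunits of voltage-gated sodium, calcium and potassium channels and of the other potassium channels, in mouse CAD cells after knockdown of the splicing regulators Ptbp1 and Ptbp2. Members were the rows of the deposited gene table with an alias naming a sodium channel (Scn followed by a number and a or b), a calcium channel (Cacna, Cacnb or Cacng) or a potassium channel (Kcn) gene. Of the 27389 gene clusters of the table, 133 rows met this rule and formed 128 genes once the row with the highest mean was kept for each symbol. Of these, 66 had 30 or more reads summed over the 3 libraries and are reported: 9 of 13 sodium, 15 of 26 calcium and 42 of 89 potassium channel genes. Another 42 genes had 1 to 29 reads and 20 had none.

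CAD cells are a mouse neuroblastoma line with catecholaminergic traits. Poly(A)+ RNA was taken 72 h after transfection with control ON-TARGETplus siRNAs, with siRNAs to Ptbp1, or with siRNAs to Ptbp1 and Ptbp2 together, and 36-base paired reads were made. Each of the 3 groups had 1 library, and all groups had been transfected with siRNAs. No difference below therefore has a replicate check and no p-value is given. Intervals are exact 95% intervals of a read ratio, are not adjusted for the number of genes, and cover counting error only. The fragments were amplified without molecular identifiers, so reads are not independent molecules and the intervals may be too narrow.

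Voltage-gated sodium channels carry the upstroke of the action potential, voltage-gated calcium channels couple depolarization to calcium entry and transmitter release, and potassium channels set the resting potential and end the spike. Each sodium or calcium channel has a pore-forming alpha subunit, which auxiliary subunits bring to the membrane and tune. Potassium channels are built from several pore subunits, which come from families gated by voltage, by calcium, by G proteins, by ATP or by none of these.

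All values given in threes are for control siRNAs, Ptbp1 siRNA and both siRNAs, in that order. The libraries held 16011466, 16899549 and 14242495 reads in clusters, of which the channel genes took 0.161%, 0.183% and 0.177%. Ptbp1 had 7191, 1486 and 1516 reads, and Ptbp2 had 784, 3044 and 633. Ptbp2 was thus 1.16-fold below the control with both siRNAs (1.04 to 1.29) and 4.04-fold below the library with Ptbp1 siRNA alone (3.71 to 4.41). All 17 noradrenergic and neuronal markers looked up (among them Th, Dbh and Tubb3) had 30 or more reads. Together these 17 summed to 5725, 5044 and 5806 CPM (reads scaled to the normalized library size). Single markers differed within this sum. After both siRNAs Dbh, Phox2a and Elavl4 were 2.32-fold, 2.07-fold and 1.52-fold higher, and Slc18a1 was 2.21-fold lower. Marker lists of other cells with excitable or channel-bearing membranes summed to less, but many of their genes had reads. The 15 skeletal and cardiac muscle markers summed to 28.7, 30.8 and 31.3 CPM, with 11 of them at 30 or more reads and none at 0. The 14 glial markers summed to 5.94, 8.20 and 6.499 CPM, with 2 of them at 30 or more reads and Olig1, Olig2 and Slc1a3 at 0 reads. The 11 fibroblast and endothelial markers summed to 36.5, 28.7 and 19.6 CPM, with 5 of them at 30 or more reads and Col1a2 at 0. The sum of this last list was lower in the library with both siRNAs, and its part in the results below was not tested. In bulk RNA, fewer cells of a type and less RNA per cell cannot be told apart.

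A gene was called by size when its log2(CPM + 1) difference between 2 libraries was at least 1, it reached 1 CPM in the higher library and its interval excluded 1. This pseudocount damps low genes, and most channel genes are low. A second rule asked for a CPM ratio of at least 1.5 either way, 30 or more reads over the 3 libraries and an interval excluding 1. By size, Kcna4 and Kcnj9 were higher and Kcnk6 lower after both siRNAs, Kcnn1 was lower after Ptbp1 siRNA, and no other channel gene was called in any pair.

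The RefSeq promoters of the genes called by size are shown because these 4 genes had the largest differences on the damped scale. For Kcnk6 no promoter is shown. Each line gives the 250 bases before a transcription start on the GRCm38.p6 build, from 5′ to 3′ on the gene's strand, in lower case, with TATA box (TATAAA) or GC box (GGGCGG) matches on either strand in capitals.
Kcna4 promoter, chr2:107290339-107290588, plus strand: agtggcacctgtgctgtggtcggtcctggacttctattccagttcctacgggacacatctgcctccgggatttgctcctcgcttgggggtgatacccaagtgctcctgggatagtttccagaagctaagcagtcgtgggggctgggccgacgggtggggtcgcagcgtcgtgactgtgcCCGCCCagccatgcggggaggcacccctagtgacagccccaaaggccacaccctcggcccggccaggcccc
Kcnj9 promoter, chr1:172329323-172329572, minus strand: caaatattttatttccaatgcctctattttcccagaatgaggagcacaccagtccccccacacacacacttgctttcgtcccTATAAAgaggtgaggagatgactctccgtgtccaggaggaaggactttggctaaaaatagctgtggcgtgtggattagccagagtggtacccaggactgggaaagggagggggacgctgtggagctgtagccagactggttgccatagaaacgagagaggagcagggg
Kcnn1 promoter, chr8:70863259-70863508, minus strand: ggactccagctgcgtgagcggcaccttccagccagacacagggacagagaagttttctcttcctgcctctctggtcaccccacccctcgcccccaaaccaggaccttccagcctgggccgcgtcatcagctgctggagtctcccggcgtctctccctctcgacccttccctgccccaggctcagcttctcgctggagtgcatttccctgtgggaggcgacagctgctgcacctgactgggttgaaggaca
The Kcna4 window holds a GC box, the Kcnj9 window a TATA box, and the Kcnn1 window neither, although another Kcnn1 promoter in the table holds a GC box. Of the 66 genes, 45 had a promoter in the RefSeq table, 63 promoters in all. A GC box was found in 47.6% of them and in 32.7% of all 32851 promoters of the same length. A TATA box was found in 1.59% against 12.4%. The left part of the RE1 element bound by the neuronal gene repressor REST (TTCAGCACC) was found in 1 channel gene, Kcnh6. That is 1.59% of the 63 promoters, against 0.301% of all promoters. Its right part (GGACAGCG) was found in Cacnb1 and Kcnj4, 3.17% of the 63 promoters, against 0.992% of all promoters. These matches are letters in a window and say nothing of binding. The 66 genes had been kept for their reads in these libraries, but the shares of all promoters took promoters whatever the reads of their genes. These shares therefore cannot separate a trait of channel genes from a trait of genes with reads in these cells. A background of promoters of genes with like reads was not tested.

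Levels per length were taken as the deposited RPKM, reads scaled to cluster length and to a library total. Genes of the calcium class had the highest levels: Cacnb3 at 42.4, 49.4 and 45.7 RPKM, Cacng3 at 30.3, 32.7 and 31.4, and Cacng7 at 26.1, 27.4 and 26.4. Kcnh2 came next, at 22.1, 30.4 and 25.5 RPKM, and below it the sodium channel beta subunit gene Scn3b at 10.9, 14.4 and 20.1. Cacng3 and Cacng7 are gamma subunit genes, several of which encode partners of AMPA receptors. The highest calcium channel pore gene, Cacna1h, was at 10.3, 9.28 and 7.81 RPKM. In the control library 7 channel genes reached 10 RPKM and 34 reached 1 RPKM. Scn3b lay just below Kcnk3 (11.2 RPKM) in the control and above it in both knockdown libraries, where Kcnk3 was at 10.1 and 12.03 RPKM.

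**Figure D1:**
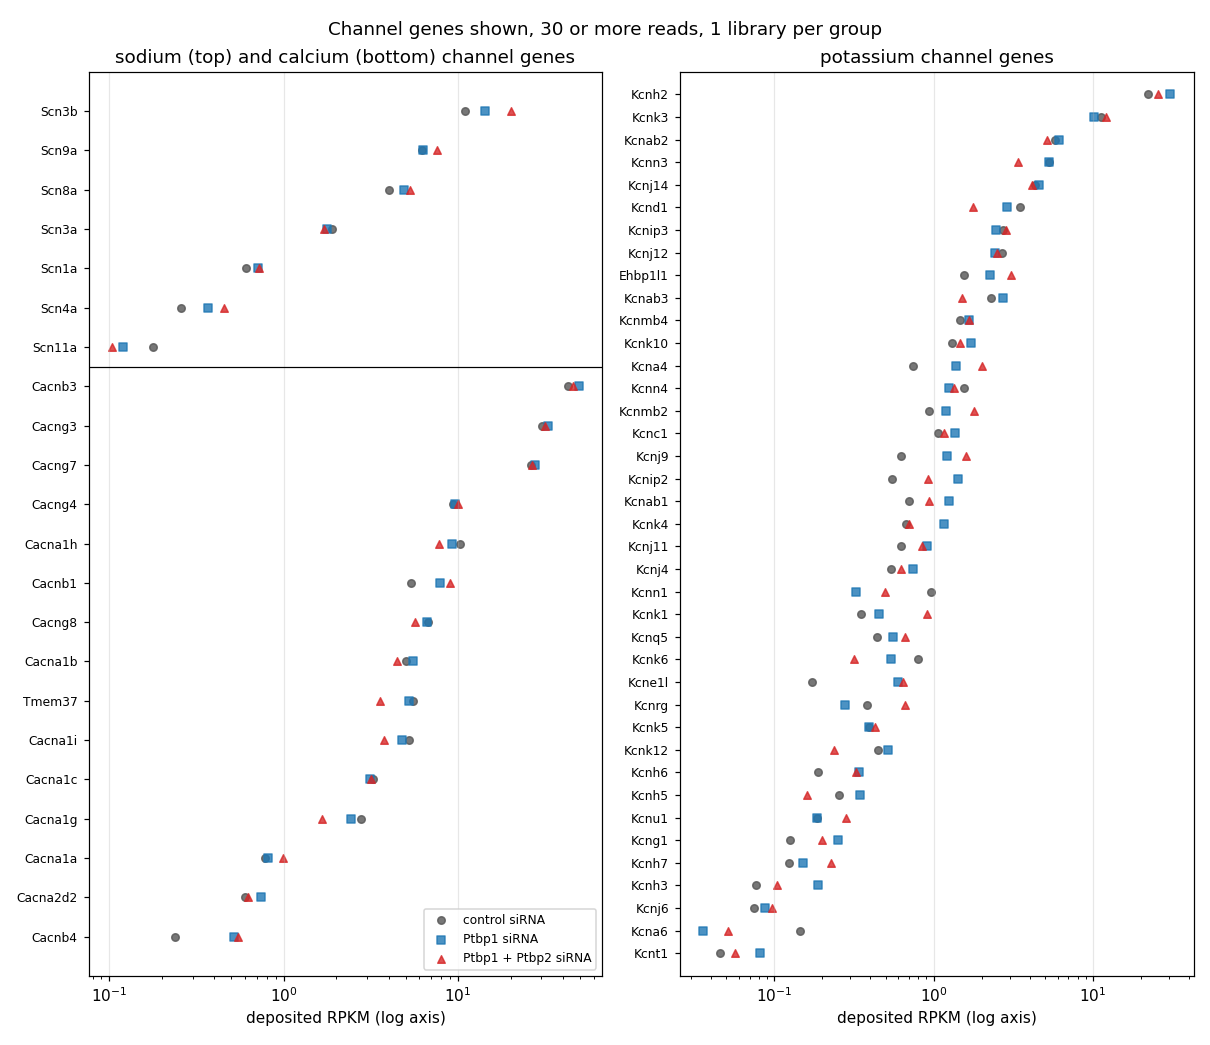
Deposited RPKM (log axis) of 61 channel genes in each of the 3 libraries, 1 point per library, genes ordered by mean level within sodium, calcium and potassium classes. Cacnb3 is highest at 42.4 to 49.4 RPKM, and the points of a gene lie close together for most genes, with Kcna4, Kcnj9, Cacnb4, Kcnn1 and Kcnk6 among those spread apart.

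**Figure D2:**
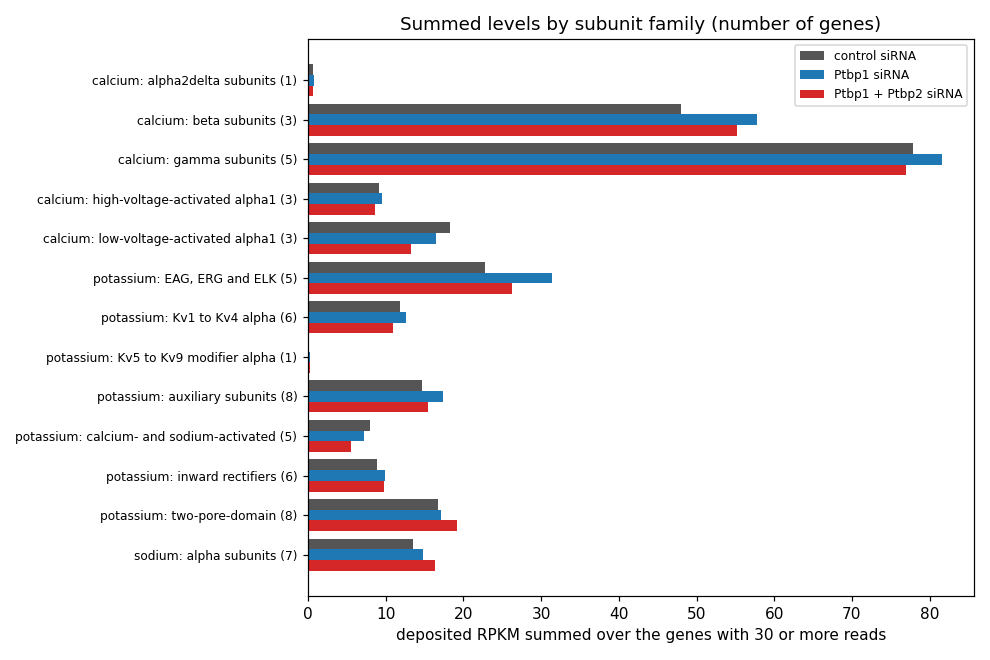
Deposited RPKM summed over the reported genes of 13 subunit families, 1 bar per library. The two-pore-domain bars include the row at Ehbp1l1, which encodes no channel (1.54, 2.24 and 3.05 RPKM). The gamma subunit bars include the row at Tmem37. The low-voltage-activated calcium channel genes go from 18.2 to 16.5 to 13.2. RPKM is scaled to library totals, without the normalization behind CPM.

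Summed over families, sodium channel alpha genes were at 13.5, 14.8 and 16.3 RPKM in the 3 libraries. High-voltage-activated calcium channel alpha1 genes were at 9.09, 9.45 and 8.58, while low-voltage-activated ones were at 18.2, 16.5 and 13.2. The potassium channel family named after EAG, ERG and ELK, most of it Kcnh2, was at 22.7, 31.5 and 26.3. The potassium channel genes grouped here as calcium- and sodium-activated were at 8.01, 7.13 and 5.55. These sums are of 1 library each. The deposited RPKM is scaled to library totals, without the normalization behind CPM. Scaling by library totals alone raised the median log2 difference of all genes by 0.06 after each knockdown. Small differences in RPKM between the control and a knockdown library can therefore come from the scaling.

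The median of the channel genes' log2(CPM + 1) differences was 0.10 with Ptbp1 siRNA and 0.05 with both, against -0.01 and -0.01 over all 13808 genes with 30 or more reads. After Ptbp1 siRNA 41 of the 66 lay above 0 and after both siRNAs 38, where 48.8% of all these genes did in each of these pairs. With both siRNAs against Ptbp1 siRNA the median was -0.055 and 29 of the 66 lay above 0. All genes gave -0.006 and 49.1% there. By class, the medians against the control were 0.166 and 0.179 for sodium, -0.002 and -0.049 for calcium, and 0.172 and 0.097 for potassium channel genes. By size, 0 of 64 tested channel genes were higher and 1 lower after Ptbp1 siRNA, where 0.269% and 0.455% of all tested genes were called. After both siRNAs 2 of 63 were higher and 1 lower, against 1.05% and 2.67%. Between the knockdown libraries none of 64 was called by size in either direction, against 0.0891% higher and 0.342% lower.

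The 1.5-fold rule took more of them. After Ptbp1 siRNA 9 of 66 channel genes (13.6%) were higher and 3 (4.55%) lower, where all genes gave 3.90% and 4.04%. By class, 1 of 9 sodium, 1 of 15 calcium and 7 of 42 potassium channel genes were higher, and the 3 lower were all potassium. After both siRNAs 10 (15.2%) were higher and 8 (12.1%) lower, where all genes gave 8.15% and 10.8%. Here 2 sodium, 2 calcium and 6 potassium channel genes were higher, and 0, 2 and 6 lower. Between the 2 knockdown libraries 3 (4.55%) were higher and 7 (10.6%) lower with both siRNAs, where all genes gave 2.38% and 4.48%. The share lower after both siRNAs was thus near the background. Among genes with 100 or more reads, 12.2% of 49 channel genes were higher after Ptbp1 siRNA and 4.08% lower, against 3.28% and 3.94% of all such genes. After both siRNAs 16.3% were higher and 14.3% lower, against 7.76% and 11.1%. Between the knockdown libraries 2.04% were higher and 10.2% lower, against 1.98% and 4.19%. The 2 knockdowns share the control library, so their counts are not independent. Higher in both by this rule were 4 genes (Kcna4, Kcnj9, Cacnb4 and Kcne1l) and lower in both 3 (Kcna6, Kcnn1 and Kcnk6). The share of all genes past the rule in both was not counted, so these counts have no background. Kcna6 and Kcne1l rest on very few reads.

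**Figure D3:**
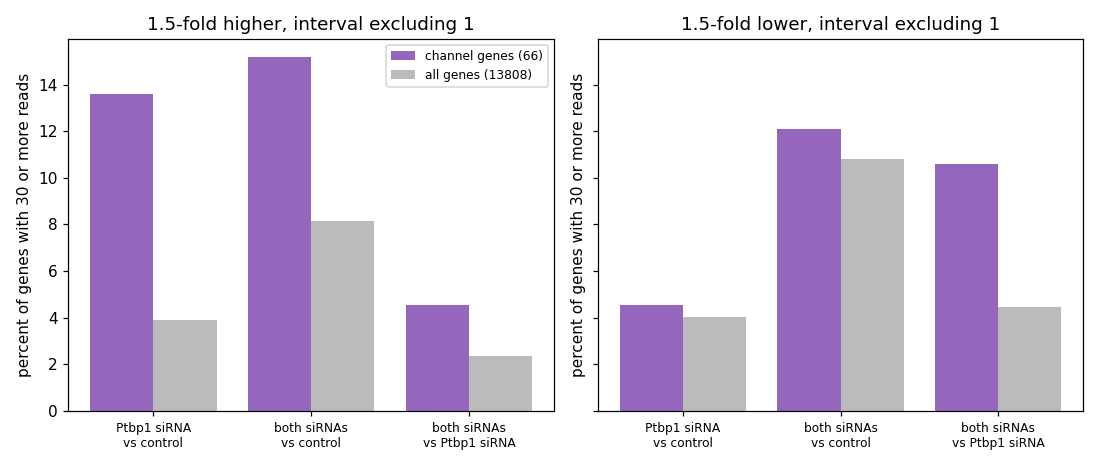
Percent of genes past 1.5-fold with an interval excluding 1, higher (left) and lower (right), for the 66 channel genes and all 13808 genes with 30 or more reads, in the 3 pairs of libraries. The higher shares of channel genes after Ptbp1 siRNA and after both siRNAs are 13.6% and 15.2%, against 3.90% and 8.15% of all genes.

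Among the sodium channel alpha subunits, which form the pore, Scn9a (chromosome 2, 66318139 to 66473010 of the mm9 build) was the most abundant. It encodes a channel of sensory and sympathetic neurons and had 1746, 1872 and 1884 reads. It was 1.16-fold higher after both siRNAs (interval 1.08 to 1.23) and its interval after Ptbp1 siRNA held 1. Scn8a, the channel of nodes and axon initial segments in many neurons (chromosome 15, 100700290 to 100876361), had 1158, 1513 and 1378 reads. Both knockdown libraries lay above the control by a small margin, 1.18-fold (1.09 to 1.27) and 1.27-fold (1.18 to 1.38). Another Scn8a row inside this span, not kept by the rule, had 132, 175 and 132 reads. Scn3a, best known from the developing brain, had 425, 424 and 343 reads, and its interval after both siRNAs lay just below 1 (1.16-fold lower, 1.00 to 1.34). Scn1a, a channel of inhibitory neurons among others, had 158, 199 and 169, with intervals that held 1. Scn4a, the skeletal muscle channel, had 41, 62 and 65 reads and was 1.70-fold higher after both siRNAs (1.13 to 2.57). Scn11a, a sensory neuron channel, had 25, 18 and 13 reads, with intervals that held 1. Scn10a and Scn7a stayed under 30 reads.

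The alias Scn2a1 is spelled outside the rule, so this neuronal alpha subunit gene is no member. It had 183, 264 and 279 reads, 1.30-fold (1.07 to 1.58) and 1.63-fold higher (1.35 to 1.98). It matters here because alpha subunit genes share sequence: 8.45% of the distinct 36-base words of the Scn3a transcripts, 8% of those of Scn1a and 6.72% of those of Scn9a also occur in transcripts of other genes, Scn2a1 being the main partner of Scn3a and Scn1a. The sources used here do not say how such reads were assigned.

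Beta subunits are single-pass proteins that modulate gating and adhesion. Scn3b (chromosome 9, 40076802 to 40099204) had 1458, 2041 and 2409 reads. The 3 libraries were in that order, and Scn3b was 1.26-fold higher after Ptbp1 siRNA (1.18 to 1.35), 1.77-fold higher after both siRNAs (1.66 to 1.89) and 1.40-fold higher with both siRNAs than with Ptbp1 siRNA alone (1.32 to 1.49). Scn2b and Scn4b had 2 reads and none.

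Among calcium channel alpha1 subunits, the 3 low-voltage-activated genes, whose T-type channels open near rest and support rhythmic firing, were all lower in both knockdown libraries. Of all 13808 genes with 30 or more reads, 7067 had a log2(CPM + 1) difference below 0 after Ptbp1 siRNA and 7063 after both. The 2 knockdowns share the control library. Cacna1h (chromosome 17, 25511389 to 25570714) had 1997, 1918 and 1358 reads. Cacna1i (chromosome 15, 80117669 to 80228723) had 1229, 1204 and 789, and Cacna1g (chromosome 11, 94269836 to 94335040) had 530, 489 and 283. All 3 were lowest with both siRNAs and between the other libraries after Ptbp1 siRNA. After both siRNAs Cacna1g was 1.75-fold lower (1.51 to 2.03), Cacna1i 1.46-fold (1.33 to 1.59) and Cacna1h 1.37-fold (1.28 to 1.47). After Ptbp1 siRNA alone the same genes were 1.20-fold (1.06 to 1.37), 1.13-fold (1.05 to 1.23) and 1.16-fold lower (1.09 to 1.23). With both siRNAs against Ptbp1 siRNA they were 1.45-fold (1.25 to 1.69), 1.28-fold (1.17 to 1.41) and 1.19-fold lower (1.11 to 1.27). Cacna1g alone passed the 1.5-fold rule, and only with both siRNAs against the control.

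Of the high-voltage-activated alpha1 genes, Cacna1b, the N-type channel gene of presynaptic terminals, had 1005, 1163 and 790 reads and was 1.19-fold lower after both siRNAs (1.08 to 1.31). Against Ptbp1 siRNA alone it was 1.24-fold lower (1.13 to 1.36). Cacna1c, an L-type channel gene, had 568, 578 and 488 reads, and Cacna1a, the P/Q-type gene, had 174, 193 and 198. For both the interval held 1 in each knockdown. Cacna1d, Cacna1e, Cacna1f and Cacna1s stayed under 30 reads, so the calcium channel pores measured were those of N-, L-, P/Q- and T-type channels.

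Calcium channel beta subunits are cytosolic proteins that carry alpha1 subunits to the membrane. Cacnb3 (chromosome 15, 98462652 to 98474962) had 3579, 4418 and 3437 reads. It was 1.11-fold higher after Ptbp1 siRNA (1.06 to 1.16) and at 1.03-fold after both (0.981 to 1.08). Cacnb1 (chromosome 11, 97864216 to 97883957) had 321, 501 and 478 reads. Both knockdown libraries were above the control, by 1.41-fold (1.22 to 1.62) and 1.59-fold (1.38 to 1.84). Cacnb4 (chromosome 2, 52283841 to 52532102) had 46, 107 and 94 reads. Its ratios to the control were 2.09 (1.47 to 3.03) and 2.19 (1.52 to 3.18), and 16% of its exon positions also lie in exons of A430018G15Rik. Cacnb2 had 9 reads in all.

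Several gamma subunit genes encode partners of AMPA receptors known as TARPs. Cacng3 had 693, 794 and 643 reads, Cacng7 592, 661 and 534, and Cacng4 221, 243 and 213. Their intervals held 1 in both knockdowns, with bounds for both siRNAs of 0.891 to 1.11, 0.857 to 1.09 and 0.851 to 1.25. Cacng8 had 125, 131 and 94 reads, with intervals that held 1, and Cacng1, Cacng2 and Cacng6 had 5, 9 and 21 reads in all. The row kept under the alias Cacng5 lies at Tmem37 (chromosome 1, 121963955 to 121970358), a gene for a gamma-like membrane protein. It had 135, 137 and 78 reads and was 1.62-fold lower after both siRNAs (1.22 to 2.17). The Cacng5 locus itself, on chromosome 11, had 10, 17 and 10 reads. Of the alpha2delta genes, which encode the extracellular subunit of calcium channels, Cacna2d2 alone passed 30 reads, with 79, 104 and 74.

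Of the voltage-gated potassium channel pore genes, Kcna4 differed most on the log2(CPM + 1) scale. It encodes a fast inactivating A-type channel (chromosome 2, 107130812 to 107138660) and had 86, 169 and 208 reads. Both knockdown libraries were above the control, by 1.77-fold (1.36 to 2.32) and 2.59-fold (2.01 to 3.37). The library with both siRNAs was also above that with Ptbp1 siRNA by 1.46-fold (1.19 to 1.80). Kcnd1, another A-type channel gene (chromosome X, 7400970 to 7413630), went the other way with 164, 145 and 74 reads. With both siRNAs it was 2.07-fold below the control (1.56 to 2.76) and 1.65-fold below the library with Ptbp1 siRNA (1.24 to 2.21). Kcna6 had 19, 5 and 6 reads and lay below the control by 4.22-fold (1.53 to 14.5) and 2.96-fold (1.14 to 9.05), on very few reads. Exons of Gm17456 cover 39.5% of its exon positions. Kcnc1, a delayed rectifier gene, had 310, 422 and 301 reads, 1.23-fold higher after Ptbp1 siRNA (1.06 to 1.42). Kcng1, a modifier subunit gene, had 7, 15 and 10.

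Kcnh2 encodes the ERG channel, which helps restrain repeated firing. The gene (chromosome 5, 23825408 to 23857423) had 2481, 3627 and 2553 reads. It was highest after Ptbp1 siRNA, 1.32-fold above the control (1.25 to 1.39), and 1.10-fold above it after both (1.04 to 1.17). Kcnq5 had 30, 40 and 40 reads, with intervals that held 1. Of the low members of the Kcnh family, Kcnh3 had 10, 26 and 12 reads, 2.34-fold higher after Ptbp1 siRNA (1.09 to 5.44), and Kcnh5, Kcnh6 and Kcnh7 had 13 to 36 reads per library. Kcnh5 was 2.16-fold lower with both siRNAs than with Ptbp1 siRNA (1.14 to 4.34).

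Potassium channel genes grouped here as calcium- and sodium-activated follow, a grouping that does not state how each is gated. Channels of the SK family shape the pause after a spike. Kcnn1, an SK channel gene (chromosome 8, 73367058 to 73387158), had 80, 29 and 37 reads. Both knockdown libraries were below the control, by 3.07-fold after Ptbp1 siRNA (1.98 to 4.86) and 2.02-fold after both (1.35 to 3.07). Kcnn3, its paralogue (chromosome 3, 89324344 to 89471328), had 289, 308 and 165 reads. It was lower in the library with both siRNAs, by 1.64-fold from the control (1.35 to 1.99) and 1.57-fold from Ptbp1 siRNA (1.30 to 1.91). Kcnn4 had 76, 65 and 59 reads and intervals that held 1. Kcnt1, a sodium-activated channel gene, had 10, 19 and 11 reads and Kcnu1, a sperm channel gene, 16, 17 and 22, with intervals that held 1. Kcnma1, the BK channel pore gene, had 4 reads in all. Its auxiliary subunit gene Kcnmb2 had 66, 89 and 113 reads and was 1.83-fold higher after both siRNAs (1.34 to 2.52). Kcnmb4, another one, had 74, 90 and 76, and exons of 1700058G18Rik and 4933400F03Rik cover 31.5% of its exon positions.

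Inward rectifiers pass potassium more readily into the cell than out of it. Kcnj9, which encodes a subunit of channels opened by G proteins (chromosome 1, 174250636 to 174259395), had 64, 131 and 145 reads. Both knockdown libraries lay above the control, by 1.84-fold (1.36 to 2.53) and 2.43-fold (1.80 to 3.31). Its partners Kcnj3 and Kcnj5 had 0 reads and Kcnj6 had 13, 16 and 15. Kcnj11, the pore of the ATP-sensitive channel, had 46, 72 and 56 reads, with intervals that held 1. The same held for Kcnj12 (177, 172 and 148 reads), Kcnj14 (276, 308 and 235) and Kcnj4 (28, 41 and 29).

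Tandem-pore (K2P) genes encode the leak channels. Kcnk3, an acid-sensitive leak channel gene (chromosome 5, 30890544 to 30927644), was the most abundant, with 973, 931 and 929 reads. It was 1.16-fold lower after Ptbp1 siRNA (1.06 to 1.27) and at 1.02-fold after both (0.933 to 1.12). Kcnk6 (chromosome 7, 30006948 to 30017513) had 79, 57 and 28 reads, 1.54-fold (1.08 to 2.20) and 2.64-fold lower (1.69 to 4.21). Kcnk1 (chromosome 8, 128519071 to 128554586) had 19, 26 and 44 reads, 2.48-fold higher after both siRNAs (1.42 to 4.50). Kcnk4, a mechanically gated leak channel gene, had 28, 52 and 26 reads. It was above the control after Ptbp1 siRNA alone, by 1.67-fold (1.04 to 2.75). Kcnk12 had 21, 26 and 10 reads and was 2.19-fold lower with both siRNAs than with Ptbp1 siRNA (1.02 to 5.08). Kcnk10 had 115, 161 and 115 reads and Kcnk5 32, 34 and 31, with intervals that held 1 in both knockdowns.

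The row kept under the alias Kcnk7 lies at Ehbp1l1 (chromosome 19, 5707892 to 5726318), a gene beside Kcnk7 that encodes no channel. It had 221, 341 and 390 reads and was 1.89-fold higher after both siRNAs (1.60 to 2.24), while the Kcnk7 locus itself had 0, 1 and 1 reads. Without this row and that at Tmem37, 9 channel genes were higher and 7 lower by the 1.5-fold rule after both siRNAs. Kcnrg, a gene for a soluble regulator of potassium channel assembly, had 17, 13 and 26 reads and was 2.38-fold higher with both siRNAs than with Ptbp1 siRNA (1.18 to 5.04).

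Auxiliary potassium channel genes differed one by one. The Kcnab genes encode cytosolic beta subunits of Kv1 channels. Kcnab2, the most abundant of them, had 512, 574 and 404 reads and was 1.18-fold lower after both siRNAs (1.04 to 1.35). Kcnab3 had 159, 201 and 93 reads, 1.60-fold below the control after both siRNAs (1.23 to 2.09) and 1.82-fold below Ptbp1 siRNA (1.41 to 2.35). Kcnab1 had 54, 102 and 64 reads and was 1.70-fold higher after Ptbp1 siRNA (1.21 to 2.41). Kcnip2, a calcium-binding partner of A-type channels, had 12, 33 and 18 reads, 2.48-fold higher after Ptbp1 siRNA (1.25 to 5.26). Kcnip3, of the same family, had 233, 224 and 216 reads and intervals that held 1. Kcne1l, a single-pass subunit gene on chromosome X, had 6, 22 and 20 reads, 3.30-fold (1.30 to 9.95) and 3.57-fold higher (1.38 to 10.9).

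**Figure D4:**
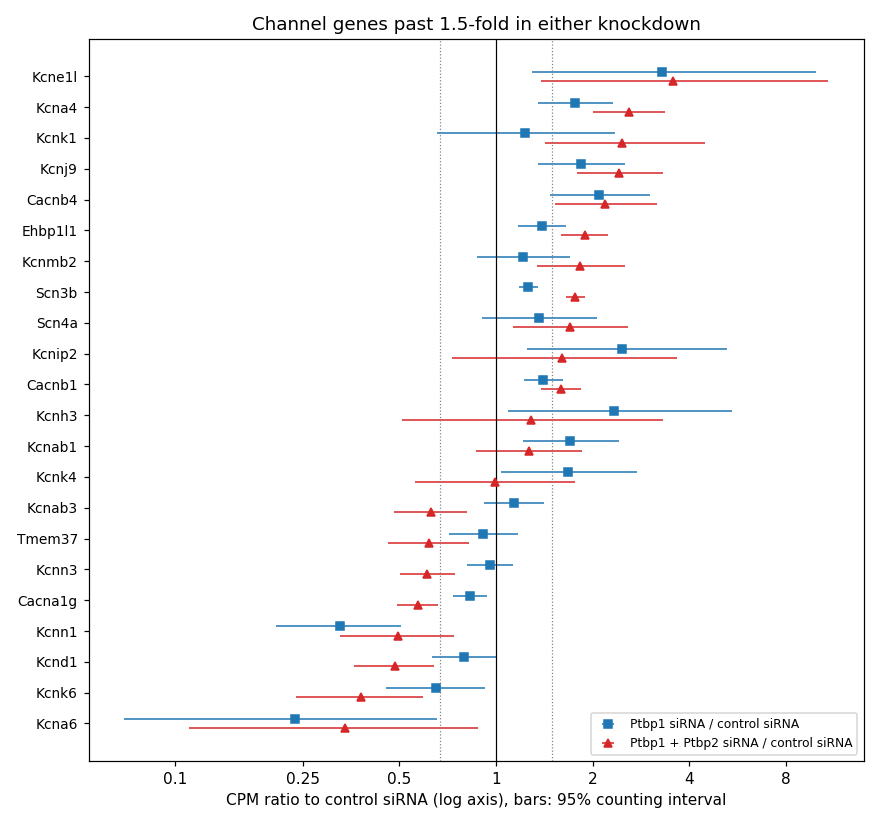
CPM ratio to the control library (log axis) with its 95% counting interval for 22 channel genes past 1.5-fold after Ptbp1 siRNA (squares), both siRNAs (triangles) or either, 1 library per group, dotted lines at 1.5-fold. Kcna4 lies at 1.77 and 2.59 and Kcnk6 at 0.649 and 0.379, while Kcnab3, Kcnn3 and Tmem37 lie below 1 by more than 1.5-fold in the library with both siRNAs.

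Related genes outside the channel families were also counted. Of 46 found genes for proteins that anchor or regulate these channels, 37 had 30 or more reads. By the 1.5-fold rule 4 were higher and 3 lower after both siRNAs, with a median log2 difference of -0.03. Over all genes with 30 or more reads 8.15% were higher and 10.8% lower in this pair, with a median of -0.01. These all-gene values are also the background of the lists in the next paragraph. The genes named from each list were picked for their large differences. Lrrc55, an auxiliary subunit gene of BK channels, had 38, 103 and 172 reads, 2.44-fold (1.67 to 3.64) and 4.85-fold higher (3.39 to 7.08). Fgf14, a partner of sodium channels at the axon initial segment, had 5, 22 and 38 reads. Gem, whose product restrains calcium channels, had 1048, 668 and 462 reads and lay below the control by 1.74-fold (1.58 to 1.92) and 2.12-fold (1.90 to 2.37). Stac, whose product binds L-type calcium channels, had 356, 560 and 657 reads, 1.42-fold (1.24 to 1.62) and 1.98-fold higher (1.73 to 2.25).

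Other cation and chloride channel genes gave 2 higher and 1 lower of 27 by the same rule after both siRNAs, with a median of -0.08. Trpc7 had 67, 85 and 140 reads, 2.24-fold higher after both (1.66 to 3.04), and Trpm4, a cation channel opened by calcium, 156, 90 and 64, 2.28-fold lower (1.69 to 3.10). Ion pump and exchanger genes gave 1 higher and 3 lower of 18, with a median of -0.04. Atp2a3, a calcium pump gene of the endoplasmic reticulum, had 181, 242 and 78 reads and was 2.17-fold lower after both siRNAs (1.65 to 2.86). Slc24a2, a potassium-dependent sodium/calcium exchanger gene, had 207, 343 and 372 reads, 1.92-fold higher (1.62 to 2.29).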

How the data were processed

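Poly(A)+ RNA of CAD cells was sequenced in 3 libraries, 1 per siRNA group, from fragments of about 350 bp (range 50 bp) after 15 PCR cycles, per the labels' protocols. The protocol names no step that marks strand. The authors deposited, per the file headers, a read score (a whole number of net reads) and an RPKM score for each of 27389 trimmed gene clusters of the mm9 build. No aligner or counting tool is named in the sources used here, nor whether a value counts reads or pairs. In 38 clusters a deposited value was below 0 (lowest -65), so something had been subtracted. These and 127 clusters without length were left out, leaving 27224 clusters, whose values entered as counts. No channel row was among those left out. The totals behind the deposited RPKM were 24167120, 25649604 and 21572838.

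Trimmed mean of M values factors (30% of M, 5% of A trimmed) were computed with numpy 2.4.6 and were 0.967, 1.02 and 1.02, so 1 CPM stood for 15.5, 17.2 and 14.5 reads. A total of 3 reads, the limit that a count of 0 allows, corresponds to 0.194, 0.174 and 0.207 CPM. Read ratios carry exact (Clopper-Pearson, conditional binomial) intervals from scipy 1.17.1. Functions were tested on simulated data. The planned form for counts was kept, although what was subtracted is unknown. Genes are named by the mm9 GENCODE annotation at their position, and exon bases shared with other genes come from it. RefSeq promoters are on GRCm38.p6 and were matched by symbol.

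The genes and lists were chosen with earlier results of these data known. Named were genes called by size, the 8 largest ratios per direction after each knockdown by the 1.5-fold rule, and per class the 4 largest differences and the 4 highest levels. From each other list up to 4 of the genes with the largest differences were named, and further channel genes were named after their values were seen. Alternatives were other pseudocounts, filters, scalings and fold limits, and leaving out overlapping clusters or, chosen after seeing the data, the 2 clusters that the annotation names otherwise. Some channel genes are counted but not reported here by name.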

Additional observations from a re-analysis of the deposited data

How the results depend on the processing

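No paired analysis was possible because each group has 1 library. Counts by size depend on the pseudocount and on the limit. With 0.1 CPM in place of 1 CPM, 4 channel genes were higher and 2 lower after Ptbp1 siRNA, 5 and 3 after both siRNAs, and 1 and 2 between the knockdowns. With 5 CPM none was called after either (0 higher, 0 lower). With a 1.5-fold limit by size the counts were 7 and 2, 10 and 8, and 2 and 4. With a 2-fold limit on the CPM ratio, 4 genes were higher after Ptbp1 siRNA, 5 were higher and 4 lower after both, and 2 lower between the knockdowns. With 100 reads in place of 30, 1 gene was higher between the knockdowns by the 1.5-fold rule. The other 100 of 120 alternative values of these counts and medians stayed within 1.5 times or, for medians, within their rank-based range over genes. Scaling by library totals shifted the median of all genes by 0.06 after each knockdown. Depth limits the 62 channel genes under 30 reads, whose differences are not reported.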
